A study of Mus musculus with 8 samples.

Results

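The 10 genes followed here are genes of neutrophil granules, calprotectin and granulocyte colony-stimulating factor (G-CSF), measured in mouse breast tumors: S100a8, S100a9, Csf3r, Csf3, Ngp, Camp, Ltf, Lcn2, Retnlg and Ly6g. They were taken by gene symbol, and all 10 were found among the 54532 genes of the count table. RNA was sequenced in bulk from 8 tumors of 4T1, a triple-negative mouse breast cancer line, here carrying firefly luciferase and grown under the skin of female BALB/cJ mice that were 6 weeks old. Control mice (4 tumors) received saline, which the treatment label gives as PBS control. Treated mice (4 tumors) received mAb-DXd/IMQ, labelled HumCD276-Dxd/IMQ, a humanized antibody to CD276 that carries the topoisomerase I inhibitor DXd and an imidazoquinoline that activates the receptors TLR7 and TLR8. The drug went into a vein in 5 courses, 4 days apart, each of 16 mg/kg, and tumors were taken at the endpoint. By then, the paper reports, mean tumor volume was far smaller after mAb-DXd/IMQ than after saline, with extensive tumor cell death in treated tumors. Treatment and tumor size therefore cannot be told apart in this comparison. No batch is given in the labels, and tumors with the same number in both groups come from different mice. Total counts were 49398150, 45019927, 56388627 and 69582375 in saline tumors 1 to 4, and 51625237, 46196237, 42965317 and 34591912 in mAb-DXd/IMQ tumors 1 to 4. The difference in library size between groups did not pass a two-sided exact permutation test (p = 0.171 over 70 assignments). A count of 3, taken as the floor, is 0.0439 to 0.0843 CPM (read counts scaled to library size) in these libraries, and floors cover counting error only. The labelled tissue was checked on Epcam, Krt8 and Krt18, which mark epithelial cells: each was at or above 193 CPM in every tumor, the lowest being Epcam in saline tumor 2.

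Neutrophils are short-lived white cells that store antimicrobial proteins in granules made in steps as the cells mature in the bone marrow. S100a8 and S100a9 encode the subunits of calprotectin, a calcium- and zinc-binding protein abundant in neutrophil cytoplasm, while Ngp, Camp, Ltf and Lcn2 encode proteins of the secondary granules. Csf3 encodes G-CSF, the growth factor that drives neutrophil production through its receptor Csf3r, and 4T1 tumors are known to secrete it and to raise neutrophil numbers in the host.

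The calprotectin genes were lower in every mAb-DXd/IMQ tumor than in every saline tumor, but neither passed the test across all genes. S100a8 was at 60.9, 20.9, 24.5 and 36.3 CPM in saline tumors 1 to 4, and at 6.25, 8.91, 9.30 and 18.4 CPM in mAb-DXd/IMQ tumors 1 to 4. Saline tumor 1 was the highest, mAb-DXd/IMQ tumor 4 came nearest to the saline values, and the groups did not overlap. Group means were 35.7 ± 18.1 and 10.7 ± 5.30 CPM (SD, n = 4 each). The log2 fold change of mAb-DXd/IMQ over saline was -1.74 (SE 0.38), with an adjusted p of 0.0521 from edgeR. S100a9 was at 113, 23.8, 34.4 and 46.5 CPM in saline tumors, and at 9.94, 14.8, 15.7 and 21.5 CPM in mAb-DXd/IMQ tumors. Again saline tumor 1 stood highest and the groups did not overlap, although saline tumor 2 lay close above mAb-DXd/IMQ tumor 4. Mean levels were 54.5 ± 40.2 and 15.5 ± 4.75 CPM (SD, n = 4 each), a log2 fold change of -1.81 (SE 0.43, adjusted p = 0.0598). A gene counts here as past the thresholds with an adjusted p below 0.05 and a log2 fold change beyond 0.58 in either direction. These p-values measure the spread between tumors. In bulk RNA, fewer cells of a type and less RNA per cell cannot be told apart. Without saline tumor 1 the fold change was -1.35 for S100a8 and -1.18 for S100a9. Without saline tumor 2 both genes passed, at adjusted p = 0.0476 for S100a8 and 0.0431 for S100a9. Adjusted p ran from 0.000141 to 0.153 for S100a8 and from 0.0151 to 0.157 for S100a9 over 20 alternatives each, and the fold change stayed negative in all of them. As the groups did not overlap, leaving out tumors could hardly turn that direction.

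**Figure D1:**
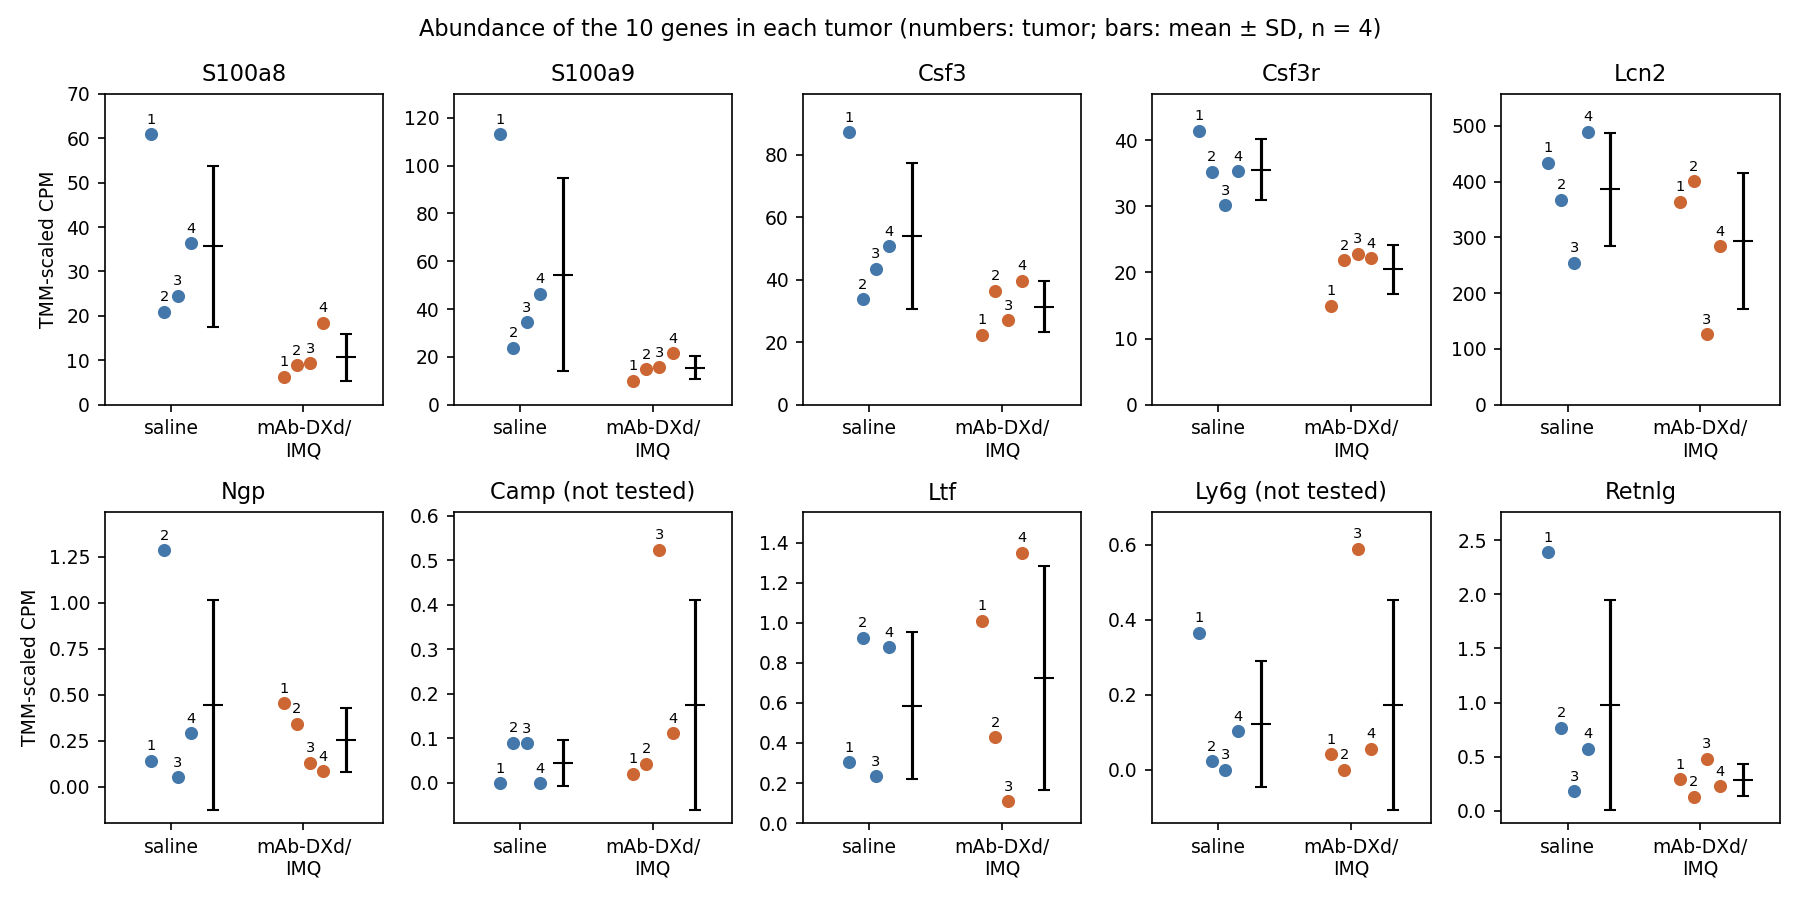
Level of each of the 10 genes in CPM (vertical axis, own scale per panel, starting below 0 where the error bar does) in the 4 saline and 4 mAb-DXd/IMQ tumors, with points for tumors and bars for mean and SD. S100a8, S100a9 and Csf3r show groups that do not overlap, while Ly6g and Camp stay at or below 0.590 CPM.

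Calprotectin is a pair of proteins, and its genes are neighbours. S100a8 (ENSMUSG00000056054) spans chr3:90668978-90670035 on the plus strand, and S100a9 (ENSMUSG00000056071) spans chr3:90692632-90695721 on the minus strand, 22.6 kb apart. Per kb of gene length, S100a9 exceeded S100a8 by 2.47, 1.51, 1.87 and 1.70 times in saline tumors, and by 2.11, 2.21, 2.25 and 1.55 times in mAb-DXd/IMQ tumors. So S100a9 was the higher of the pair in all 8 tumors, with overlapping ratios in the groups. As a description over 8 tumors, their log2 levels had a Pearson r of 0.972 and a Spearman rho of 1. Such values were not particular to the pair: r was 0.961 for S100a9 with Csf3, 0.922 for S100a8 with Csf3 and 0.915 for S100a8 with Csf3r. The bases just before the starts of S100a8 and S100a9 are shown, since their levels went together across tumors, with those of Ngp, a secondary granule gene, for comparison. Each is the part of the 250 bases before the RefSeq start that precedes any annotated exon, 5′ to 3′ on the gene's strand, on build GRCm38.p6: chr3:90668821-90668977 (plus), chr3:90695722-90695971 (minus) and chr9:110419558-110419746 (plus). Capitals mark matches, on either strand, to a C/EBP-like motif (TTNNGNAA) or a PU.1-like motif (GAGGAA), named for factors known to act in granulocyte development.
S100a8: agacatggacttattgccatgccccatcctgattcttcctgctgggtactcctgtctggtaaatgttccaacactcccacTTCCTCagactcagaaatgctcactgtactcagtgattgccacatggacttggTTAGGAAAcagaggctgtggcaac
S100a9: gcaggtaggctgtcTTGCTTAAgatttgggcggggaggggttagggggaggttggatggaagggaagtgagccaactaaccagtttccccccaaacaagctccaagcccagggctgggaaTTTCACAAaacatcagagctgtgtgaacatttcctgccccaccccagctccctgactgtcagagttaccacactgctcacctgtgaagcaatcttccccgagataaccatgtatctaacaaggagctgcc
Ngp: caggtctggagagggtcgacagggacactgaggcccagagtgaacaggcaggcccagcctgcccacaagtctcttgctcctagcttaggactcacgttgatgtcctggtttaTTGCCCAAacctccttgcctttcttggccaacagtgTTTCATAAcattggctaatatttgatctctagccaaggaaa
The stretch of S100a8 holds 1 C/EBP-like and 1 PU.1-like match, that of S100a9 holds 2 C/EBP-like matches, and that of Ngp holds 2 C/EBP-like matches. RefSeq windows of 250 bases were matched for 9 of the 10 genes, without Csf3. These genes have 10 windows, since Ly6g has 2. A C/EBP-like match lay in 8 of the 10, against 36.8% of all 32851 windows, and a PU.1-like match in 6 of the 10, against 23.3%. No window of these genes held the STAT-like letters TTCNNNGAA, which 7.02% of all windows hold. The PU.1-like letters can fall inside the C/EBP-like ones. A match describes letters and is not a binding site.

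Of the G-CSF pair, the receptor gene fell and the ligand gene did not pass the test. Csf3r (ENSMUSG00000028859, chr4:126024550-126044440), the receptor through which G-CSF acts on neutrophils and their precursors, was at 41.5, 35.2, 30.1 and 35.4 CPM in saline tumors. Its mAb-DXd/IMQ tumors were at 15, 21.8, 22.9 and 22.1 CPM. Every mAb-DXd/IMQ tumor was below every saline tumor, and mAb-DXd/IMQ tumor 1 was lowest. The mean went from 35.6 ± 4.64 to 20.5 ± 3.67 CPM (SD, n = 4 each), a log2 fold change of -0.80 (SE 0.16, adjusted p = 0.0402). Csf3r lost its call without saline tumor 1 (adjusted p = 0.0625), saline 2 (0.0715), saline 3 (0.0754), saline 4 (0.134), mAb-DXd/IMQ 2 (0.0749), mAb-DXd/IMQ 3 (0.0587) or mAb-DXd/IMQ 4 (0.0935). Over 20 alternatives its adjusted p ran from 0.000534 to 0.134 and its log2 fold change from -0.87 to -0.68. Csf3 (ENSMUSG00000038067, chr11:98701263-98703629), which encodes G-CSF itself, was at 87.3, 33.8, 43.5 and 50.7 CPM in saline tumors, against 22.4, 36.5, 27.0 and 39.7 CPM in mAb-DXd/IMQ tumors. Saline tumor 1 was again highest, and saline tumor 2 lay among the mAb-DXd/IMQ values, so the groups overlapped. The log2 fold change of Csf3 was -0.78 (SE 0.28, adjusted p = 0.163). Without saline tumor 1 it was -0.45, beside -0.72 for Csf3r, and over 20 alternatives it ran from -0.95 to -0.45. Csf3 had the wider spread of the pair: the pooled within-group SD of log2 level was 0.49 for Csf3 and 0.24 for Csf3r, beside a median of 0.29 over all tested genes.

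Among the secondary granule genes, Lcn2 was abundant and the others had at most 60 counts in any tumor. Lcn2 (ENSMUSG00000026822, chr2:32384633-32388252) encodes lipocalin-2, which binds bacterial iron carriers and is also made by epithelial cells. Its level was 434, 367, 254 and 489 CPM in saline tumors and 364, 401, 127 and 284 CPM in mAb-DXd/IMQ tumors. The groups overlapped, with mAb-DXd/IMQ tumor 3 lowest, and the log2 fold change was -0.39 (SE 0.31, adjusted p = 0.533). Without mAb-DXd/IMQ tumor 3 the fold change of Lcn2 was -0.14, and over 20 alternatives it ran from -0.58 to -0.14. Ngp, neutrophilic granule protein, had raw counts of 7, 57, 3 and 20 in saline tumors and 22, 16, 6 and 3 in mAb-DXd/IMQ tumors. Saline tumor 2 was highest, the groups overlapped, and the log2 fold change was -0.76 (SE 0.88, adjusted p = 0.687). Without saline tumor 2 it became 0.62. Ltf, the iron-binding lactoferrin, had 15, 41, 13 and 60 counts in saline tumors and 49, 20, 5 and 48 in mAb-DXd/IMQ tumors. Its values overlapped throughout (log2 fold change 0.30, SE 0.70, adjusted p = 0.861), and without mAb-DXd/IMQ tumor 4 the fold change became -0.17. Camp, the antimicrobial peptide cathelicidin, had 0, 4, 5 and 0 counts in saline tumors and 1, 2, 24 and 4 in mAb-DXd/IMQ tumors, too few to be tested. Camp, Ngp and Ltf all lie on chromosome 9, with 570 kb between Camp and Ngp and 596 kb between Ngp and Ltf.

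Ly6g, the surface protein most used to mark mouse neutrophils, had at most 27 counts in any tumor, so the name neutrophil rests here on other genes than its defining marker. Its raw counts were 18, 1, 0 and 7 in saline tumors and 2, 0, 27 and 2 in mAb-DXd/IMQ tumors. The highest was mAb-DXd/IMQ tumor 3, at 0.590 CPM, and the gene was not tested. Retnlg, a resistin-like protein secreted by neutrophils, had 118, 34, 10 and 39 counts in saline tumors and 14, 6, 22 and 8 in mAb-DXd/IMQ tumors. Saline tumor 1 stood highest, at 2.39 CPM, and saline tumor 3 lay among the mAb-DXd/IMQ values. The log2 fold change of Retnlg was -1.78 (SE 0.72, adjusted p = 0.216). It was -0.84 without saline tumor 1, and -0.59 with mAb-DXd/IMQ tumor 2 also left out.

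Counted together, 8 of the 10 genes had enough counts to be tested. Of these, 1 was past the thresholds as lower (Csf3r), 0 as higher and 7 not past, while Camp and Ly6g were not tested. Across all 18511 tested genes, 1.06% were past the thresholds in either direction, 0.519% as lower and 0.546% as higher. Groups did not overlap, with mAb-DXd/IMQ lower, in 3 of the 8 genes and in 7.10% of all tested genes. The fold change was negative in 7 of 8, or 87.5%, against 47.4% of all tested genes, with a median log2 fold change of -0.79 against 0.02. These genes and the lists below were chosen with earlier results of these data known, so such shares describe them and are not a test. Levels of S100a8, S100a9, Csf3 and Csf3r also went together across tumors, so these genes are not independent of each other. At an unadjusted p below 0.05 in edgeR, 5 of the 8 were lower and 0 higher, beside 9.79% and 9.13% of all tested genes. DESeq2 called 3 lower (S100a8, S100a9 and Csf3r) and 0 higher, and limma voom called 1 lower and 0 higher. Of all tested genes, DESeq2 called 1.89% lower and 2.37% higher, and voom 0.475% lower and 0.465% higher. Over all genes, edgeR called 197, of which 101 were higher and 96 lower, and with upper-quartile scaling 218, of which 145 were higher and 73 lower. That total was 111 without saline tumor 2, 10 without saline 3, 11 without saline 4, 76 without mAb-DXd/IMQ 2, 88 without mAb-DXd/IMQ 3 and 12 without mAb-DXd/IMQ 4. The count of these 10 genes called was 0 without saline tumor 1, saline 3, saline 4, mAb-DXd/IMQ 2, mAb-DXd/IMQ 3 or mAb-DXd/IMQ 4, and 2 without saline 2.

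**Figure D2:**
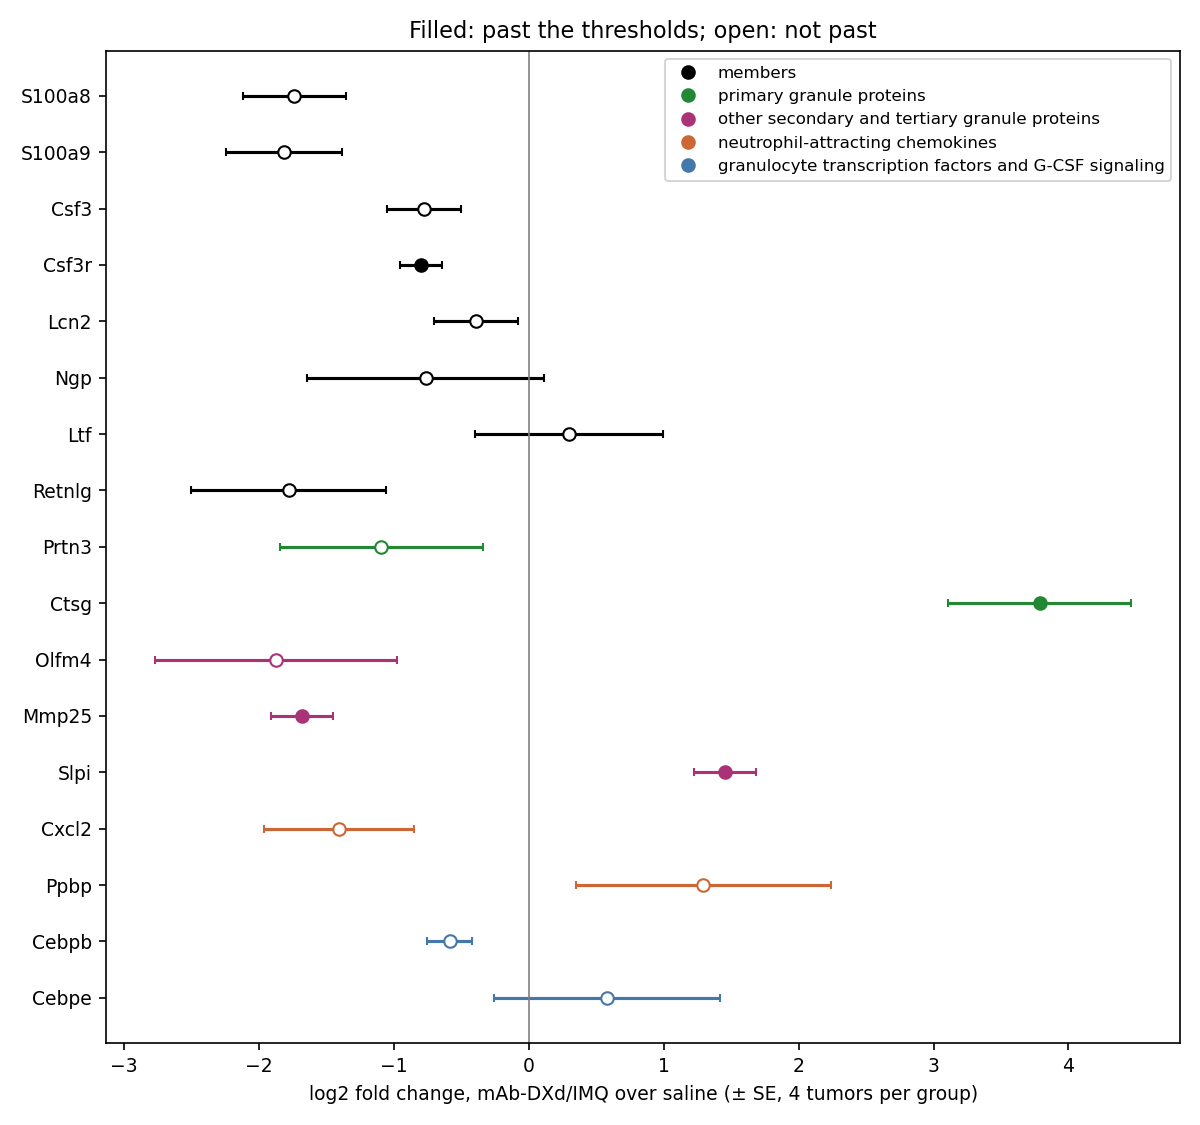
Log2 fold change of mAb-DXd/IMQ over saline (horizontal axis, ± SE, 4 tumors per group) for the tested genes among the 10 and for the genes of 4 related lists that were past the thresholds or had the highest or lowest fold change, filled where past the thresholds. Csf3r (-0.80), Mmp25 (-1.68), Slpi (1.46) and Ctsg (3.79, with saline counts near 0) are filled, and S100a8 and S100a9 lie at -1.74 and -1.81 as open points.

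Compared per kb of gene length, the group means fell into a high and a low set, though single values of the sets came close. In saline tumors the order of mean CPM per kb was Lcn2 (147 ± 38.5), S100a9 (104 ± 77.1), S100a8 (51.4 ± 26), Csf3 (38.1 ± 16.5) and Csf3r (9.85 ± 1.28). Then came Retnlg (1.65 ± 1.64), Ngp (0.363 ± 0.467), Ltf (0.170 ± 0.106), Ly6g (0.130 ± 0.178) and Camp (0.0593 ± 0.0685), each ± SD over 4 tumors. Lcn2 and S100a9 overlapped and S100a9 was the higher in saline tumor 1 alone. The ranges over tumors of S100a9 and S100a8, and of S100a8 and Csf3, overlapped as well, but within each of the 4 saline tumors S100a9 was above S100a8 and S100a8 above Csf3. Csf3r, with 8.35 to 11.5 CPM per kb, was below all values of Csf3 and above all of Retnlg. From Retnlg down, neighbours again overlapped. In mAb-DXd/IMQ tumors the order was Lcn2 (112 ± 46.4), S100a9 (29.7 ± 9.11), Csf3 (22.2 ± 5.70), S100a8 (15.4 ± 7.64), Csf3r (5.67 ± 1.02) and Retnlg (0.473 ± 0.251). Camp (0.231 ± 0.311), Ltf (0.210 ± 0.162), Ngp (0.207 ± 0.143) and Ly6g (0.182 ± 0.297) followed, with overlapping ranges from Retnlg down. In this group Lcn2 was above all values of S100a9, and S100a8 above all of Csf3r. Within tumors, S100a8 was above Csf3 in all 4 saline tumors (87.8 against 61.8, 30.2 against 23.9, 35.3 against 30.8 and 52.3 against 35.9 CPM per kb). It was below Csf3 in all 4 mAb-DXd/IMQ tumors (9.01 against 15.9, 12.8 against 25.8, 13.4 against 19.1 and 26.5 against 28.1 CPM per kb). This reversal of order was seen in the values and was not tested. It depends on the division by gene length, 694 bases for S100a8 and 1413 for Csf3. In CPM without that division, S100a8 was below Csf3 in every tumor of both groups.

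**Figure D3:**
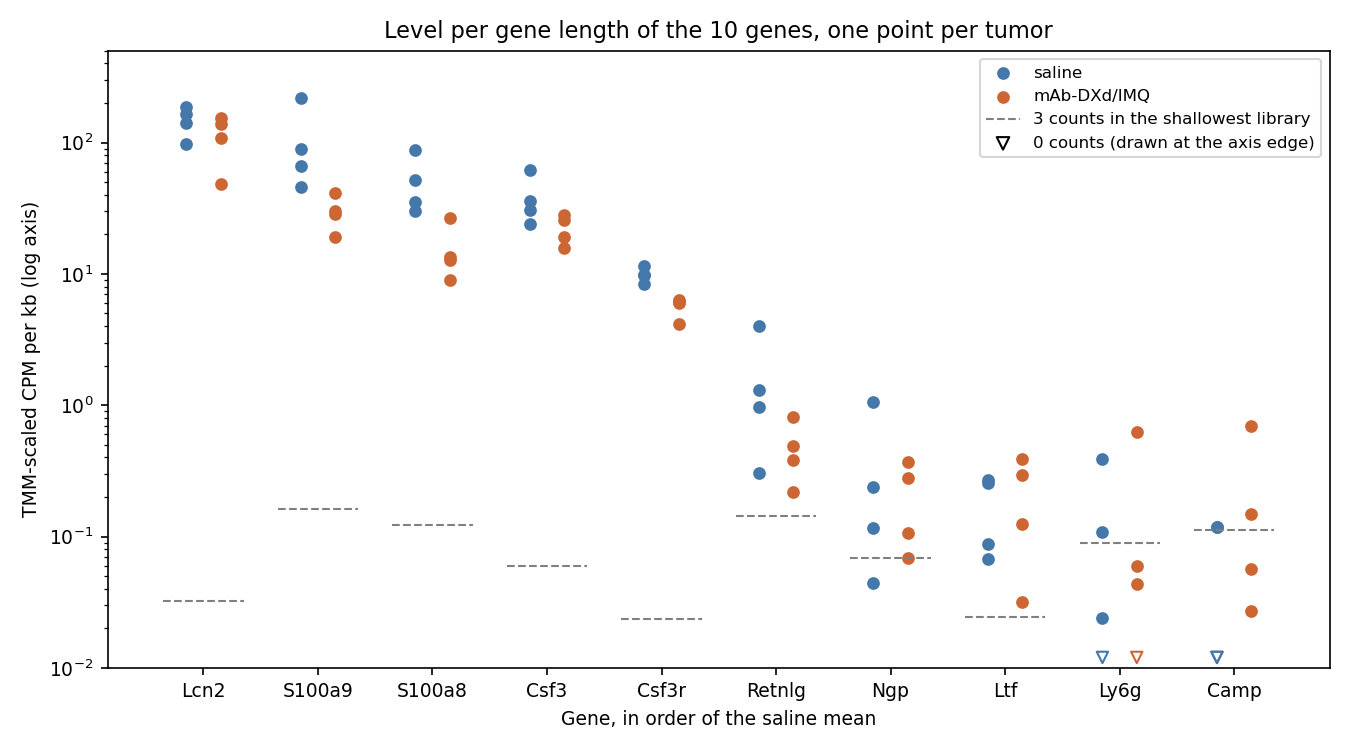
Level of the 10 genes in CPM per kb (log axis) for each tumor of both groups, with dashes at 3 counts in the smallest library and triangles at the axis edge for 0 counts. Lcn2, S100a9, S100a8, Csf3 and Csf3r have saline means from 9.85 to 147, against 1.65 and below for the other genes. Retnlg in saline tumor 1 (4.03) comes close to Csf3r in mAb-DXd/IMQ tumor 1 (4.16).

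Genes whose levels followed these genes most closely over the 8 tumors were listed among 14646 genes with a mean of at least 1 CPM, as a description, a limit that leaves out Ngp, Ltf, Camp, Retnlg and Ly6g as matches, and every primary granule gene listed but Cst7. For S100a9 they were Stk38l (Pearson r 0.972, Spearman rho 0.929), S100a8, Wwp2 (r 0.970), Sipa1l1 (r 0.965) and Rock2 (r 0.964). For Csf3 they were Pias3 (r 0.981, rho 0.976), Tspan2 (r 0.977), Hdac6 (r 0.971), Aspscr1 (r 0.968) and Mxd1 (r 0.966). Lcn2 was most like R3hcc1l (r 0.973, rho 0.881), Kitl (r 0.972), Utp23 (r 0.968), Ino80b (r 0.966) and Ptprk (r 0.964). Ngp was most like Lrat (r 0.967, rho 0.905), Acaa1b (r 0.943), Itm2c (r 0.939), Tfb2m (r 0.936) and Man2b2 (r 0.933).

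Among other granule genes, Mmp25 was past the thresholds as lower and Slpi as higher, and Ctsg was called higher with saline counts near 0. Of 8 primary granule genes, whose proteins are made first as neutrophils mature, 3 were tested, 1 was higher and 0 lower (0.546% and 0.519% of all tested genes), and the median log2 fold change was -0.11. Ctsg, the serine protease cathepsin G, was at 0.162, 0, 0.143 and 0.0439 CPM in saline tumors and at 0.969, 0.985, 1.22 and 1.80 CPM in mAb-DXd/IMQ tumors. All mAb-DXd/IMQ tumors were above all saline tumors, where Ctsg had only 8, 0, 8 and 3 counts. The gene passed the filter on low counts through the mAb-DXd/IMQ tumors alone, so its groups had to differ, and its fitted log2 fold change of 3.79 (SE 0.68, adjusted p = 0.0290) depends on how counts near 0 are treated. Cst7 (-0.11) and Prtn3 (-1.09), the protease proteinase 3, were not past the thresholds. Mpo, Elane, Ms4a3, Prss57 and Bpi were not tested, and Bpi had 0 counts in all 8 tumors. Ctsg lost its call without saline tumor 3 (adjusted p = 0.0793), saline 4 (0.119), mAb-DXd/IMQ 2 (0.0600), mAb-DXd/IMQ 3 (0.0587) or mAb-DXd/IMQ 4 (0.0935), in a range of 5.30e-07 to 0.119 over 19 alternatives.

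All 14 other secondary and tertiary granule genes were tested, 1 was lower and 1 higher (0.519% and 0.546% of all tested genes), and the median was -0.19. Mmp25, a membrane-anchored metalloproteinase of leukocytes, was at 7.30, 10.1, 9.89 and 12.8 CPM in saline tumors and 3.14, 3.88, 2.42 and 3.06 CPM in mAb-DXd/IMQ tumors. The groups did not overlap and Mmp25 fell, with a log2 fold change of -1.68 (SE 0.23, adjusted p = 0.0201). Slpi, a protease inhibitor that epithelial cells also secrete, was at 50.5, 23.7, 36.2 and 43.3 CPM in saline tumors and 110, 98.7, 77.5 and 136 CPM in mAb-DXd/IMQ tumors. Here every mAb-DXd/IMQ tumor was above every saline tumor, and Slpi rose (log2 fold change 1.46, SE 0.23, adjusted p = 0.0201). Neither kept its call without saline tumor 3 (adjusted p = 0.0657 for Mmp25, 0.0721 for Slpi), saline 4 (0.0846 for both) or mAb-DXd/IMQ 4 (0.0694 for both). Over 20 alternatives adjusted p ran from 3.24e-10 to 0.0846 for Mmp25 and from 4.87e-07 to 0.0846 for Slpi. Lyz2, the lysozyme of macrophages and neutrophils and the highest of the list at 1212 CPM per kb over all tumors, had a log2 fold change of -0.04. Mmp9 (0.82) and Olfm4 (-1.87) were not past the thresholds either.

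Of 28 receptors and markers of mature neutrophils, 26 were tested and edgeR called 0, with 6 lower and 0 higher at an unadjusted p below 0.05, beside 9.79% and 9.13% of all tested genes. DESeq2 called 4 lower (1.89% of all tested genes), Wfdc21 among them, and limma voom 0, and the median was -0.21. Wfdc21 had the lowest fold change (-3.09, SE 0.82, adjusted p = 0.0795), from 83, 12, 33 and 91 counts in saline tumors and 0, 7, 4 and 8 in mAb-DXd/IMQ tumors. It passed the filter on low counts mainly through the saline tumors, so its fold change and DESeq2 call rest on a group near the floor. In the same list Lrg1 had the highest fold change (0.49). Itgb2, the shared chain of the leukocyte integrins, had -0.18, Wfdc17 had 0.02 and Lst1 had 0.01. The 6 NADPH oxidase subunits, which make superoxide in neutrophils and macrophages, had a median of -0.20, with 0 called by edgeR, DESeq2 or voom and 0 at an unadjusted p below 0.05. In that list Cyba had 0.16, Ncf4 -0.09, Cybb -0.29 and Rac2 -0.34.

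In the list of granulocyte transcription factors and G-CSF signaling, 13 genes were tested. Of these, 12 had a negative fold change, against 47.4% of all tested genes, with a median of -0.43 against 0.02. Fold changes fell with gene length over all tested genes (rho = -0.212), and lengths here ran from 1241 bases (Cebpe) to 12025 (Runx1). The share over all genes is not matched for length, and the part of length in these values was not tested. None was called by edgeR or voom, 7 were lower and 0 higher at an unadjusted p below 0.05 (9.79% and 9.13% of all tested genes), and DESeq2 called 1 lower (1.89% of all tested genes), Cebpb. Cebpb, a C/EBP factor of emergency granulocyte production, had a log2 fold change of -0.59 (SE 0.17, adjusted p = 0.102). Jak2, a kinase that signals from cytokine receptors, had -0.45, and Socs3, which dampens G-CSF signaling, had -0.35. Cebpe, a factor needed for secondary granules, was highest at 0.58 (SE 0.84). Of 15 growth factors and receptors, 13 were tested, 0 were called by edgeR or voom, 4 were lower and 1 higher at an unadjusted p below 0.05 (9.79% and 9.13% of all tested genes), and DESeq2 called 1 lower (1.89% of all tested genes), Il6ra, named after its values were seen. Their median was -0.11, from Csf1r (-0.72), the macrophage growth factor receptor, to Il17ra (0.29), with Csf1 at 0.03 and Csf2ra at -0.11, and Il17a had 0 counts in all tumors.

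Chemokines that draw neutrophils had the lowest median among the lists of related genes, -1.06 over 5 of 6 genes tested. Cxcl1 was at 50.7, 20.2, 43.2 and 132 CPM in saline tumors and at 18.8, 32.5, 19.8 and 31.1 CPM in mAb-DXd/IMQ tumors. Saline tumor 4 was highest, saline tumor 2 lay among the mAb-DXd/IMQ values, and the log2 fold change was -1.27 (SE 0.46, adjusted p = 0.167). Cxcl2 had -1.41, Cxcl5 had -1.06 and Ppbp had 1.29. EdgeR, DESeq2 and voom called 0, and 3 were lower and 0 higher at an unadjusted p below 0.05, where all tested genes have 9.79% and 9.13%. For 10 receptors and partners of calprotectin, lipocalin-2 and cathelicidin, 9 were tested, the 3 tools called 0, 1 was lower and 1 higher at an unadjusted p below 0.05, and the median was -0.17. Tlr4, a receptor of calprotectin, had -0.37, the Tlr4 co-receptor Cd14 had -0.52, P2rx7 had -0.54, Bsg had 0.33 and the lipocalin-2 receptor Slc22a17 had 0.62. Of 13 other S100 genes, 11 were tested, the 3 tools called 0, 0 were lower and 1 higher at an unadjusted p below 0.05, and the median was 0.21. S100a6 (1002 CPM per kb over all tumors), S100a11 (697) and S100a10 (633) had fold changes of 0.28, 0.21 and -0.09, and S100a16 was lowest at -0.32. S100b was highest at 2.05, with 4, 16, 3 and 2 counts in saline tumors and 35, 17, 26 and 16 in mAb-DXd/IMQ tumors, so it passed the filter mainly through the group where it is high. In S100a11, 34.0% of 100-base windows also occur in another gene.

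**Figure D4:**
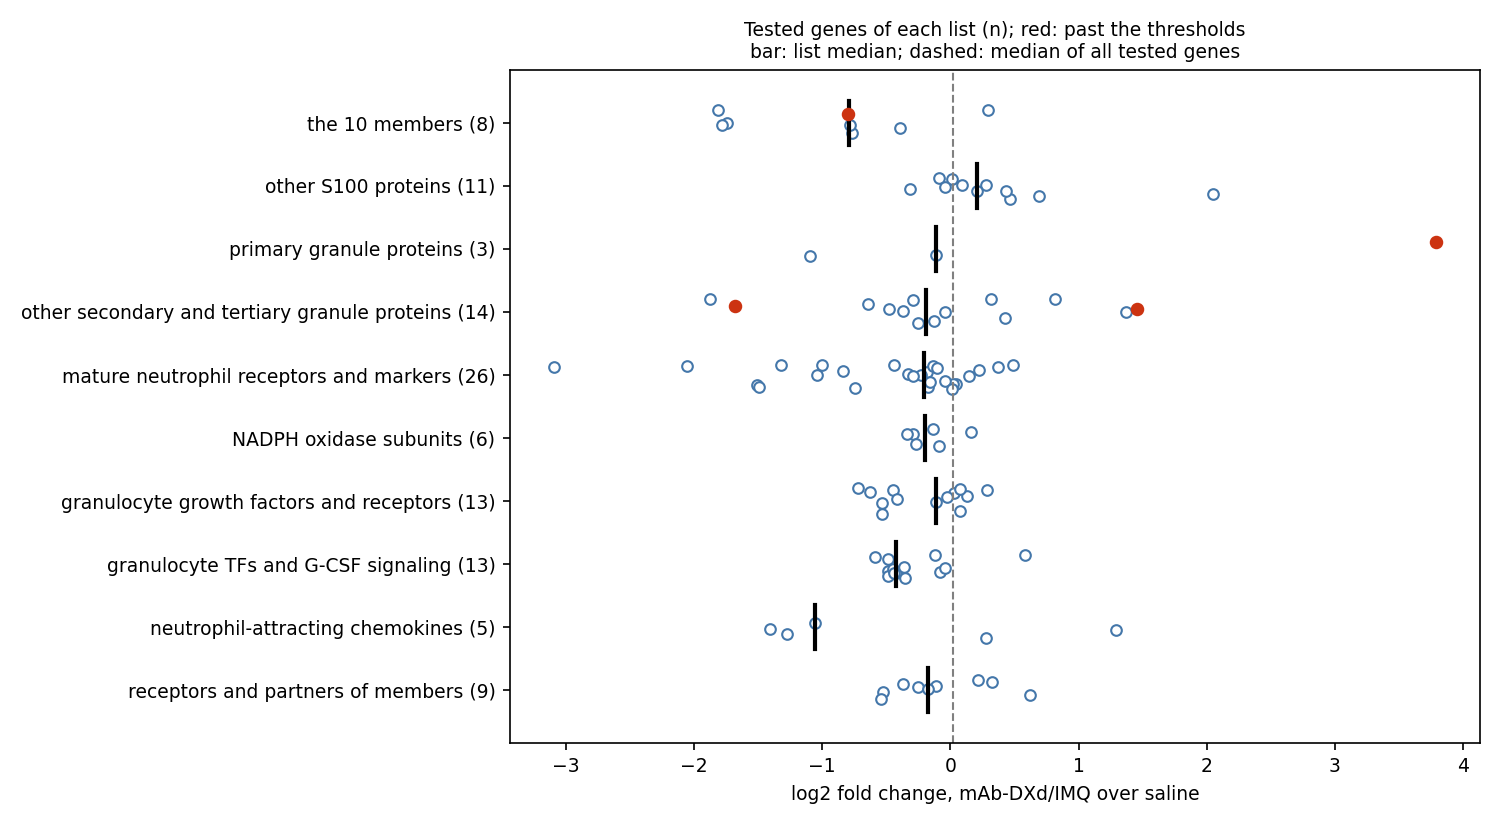
Log2 fold change of mAb-DXd/IMQ over saline for every tested gene among the 10 and of each list of related genes (number tested in brackets), with the list median as a bar and the median of all tested genes, 0.02, as a dashed line. The chemokine list has a median of -1.06, and genes past the thresholds are in red.

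Markers of other cells were measured beside these genes. Summed without Krt14, epidermal markers stood out in 2 tumors, though not each gene did so in both. The summed CPM of 13 genes was 222, 37.1, 153 and 107 in saline tumors and 221, 555, 227 and 107 in mAb-DXd/IMQ tumors, with Krt14 the most abundant. Without Krt14 the other 12 summed to 62.0, 10.9, 21.7 and 16 CPM, against 13.1, 227, 10.9 and 16.3 CPM, so saline tumor 1 and mAb-DXd/IMQ tumor 2 were high. Stfa3, a stefin of neutrophils chosen after its values were seen, was high in the same tumors, at 25.3 and 36.1 CPM against 3.26 CPM or less in the others. BC100530, a related stefin chosen likewise, was at 30.7 and 44.2 CPM there against 1.97 CPM or less, and 15.6% of its 100-base windows also occur in another gene. S100a8 and S100a9 were high in saline tumor 1 but not in mAb-DXd/IMQ tumor 2 (8.91 and 14.8 CPM). With both tumors left out, chosen after seeing the data, the log2 fold change was -1.27 for S100a8 (adjusted p = 0.146), -1.15 for S100a9 (0.128) and -0.75 for Csf3r (0.111). The part of epidermal RNA in these values was not tested. Of the epidermal genes 6 were tested, edgeR, DESeq2 and voom called 0, and 0 were at an unadjusted p below 0.05.

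Macrophage and monocyte markers, 11 genes led by C1qa, summed to 1035, 3112, 1756 and 2029 CPM in saline tumors and 1800, 1513, 1577 and 1271 CPM in mAb-DXd/IMQ tumors. The lowest sum was in saline tumor 1, where S100a8 and S100a9 were highest, and the highest in saline tumor 2, where they were lowest of the saline group; any part of this in the calprotectin values was not tested. EdgeR and voom called 0 of the 11, 2 were lower and 1 higher at an unadjusted p below 0.05 (9.79% and 9.13% of all tested genes), and DESeq2 called 2 lower (1.89% of all tested genes), Mrc1 among them. Pan-leukocyte markers, 3 genes led by Ptprc, summed to 251, 408, 341 and 362 CPM against 343, 283, 362 and 270 CPM, overlapping between groups, with 0 called by the 3 tools and 0 at an unadjusted p below 0.05. Of 7 T and B lymphocyte markers, led by Cd8a, 6 were tested and 2 fell. At an unadjusted p below 0.05 in edgeR, 5 were lower and 0 higher, DESeq2 called 5 lower and voom 2 lower, with 0 higher in both. The shares of all tested genes that were lower are 0.519% past the edgeR thresholds, 9.79% at an unadjusted p below 0.05, 1.89% by DESeq2 and 0.475% by voom. Their sums were 43.8, 65.1, 65.5 and 57.5 CPM in saline tumors against 30.8, 26.6, 18.0 and 25.3 CPM in mAb-DXd/IMQ tumors, without overlap. Cd4 fell by 1.91 (SE 0.25) and Cd8a fell by 1.22 (SE 0.17) on the log2 scale, each with an adjusted p of 0.0201. Both lost their call without saline tumor 3 (0.0657), saline 4 (0.0846) or mAb-DXd/IMQ 4 (0.0694), in ranges of 2.17e-10 to 0.0846 for Cd4 and 2.97e-08 to 0.0847 for Cd8a over 20 alternatives.

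**Figure D5:**
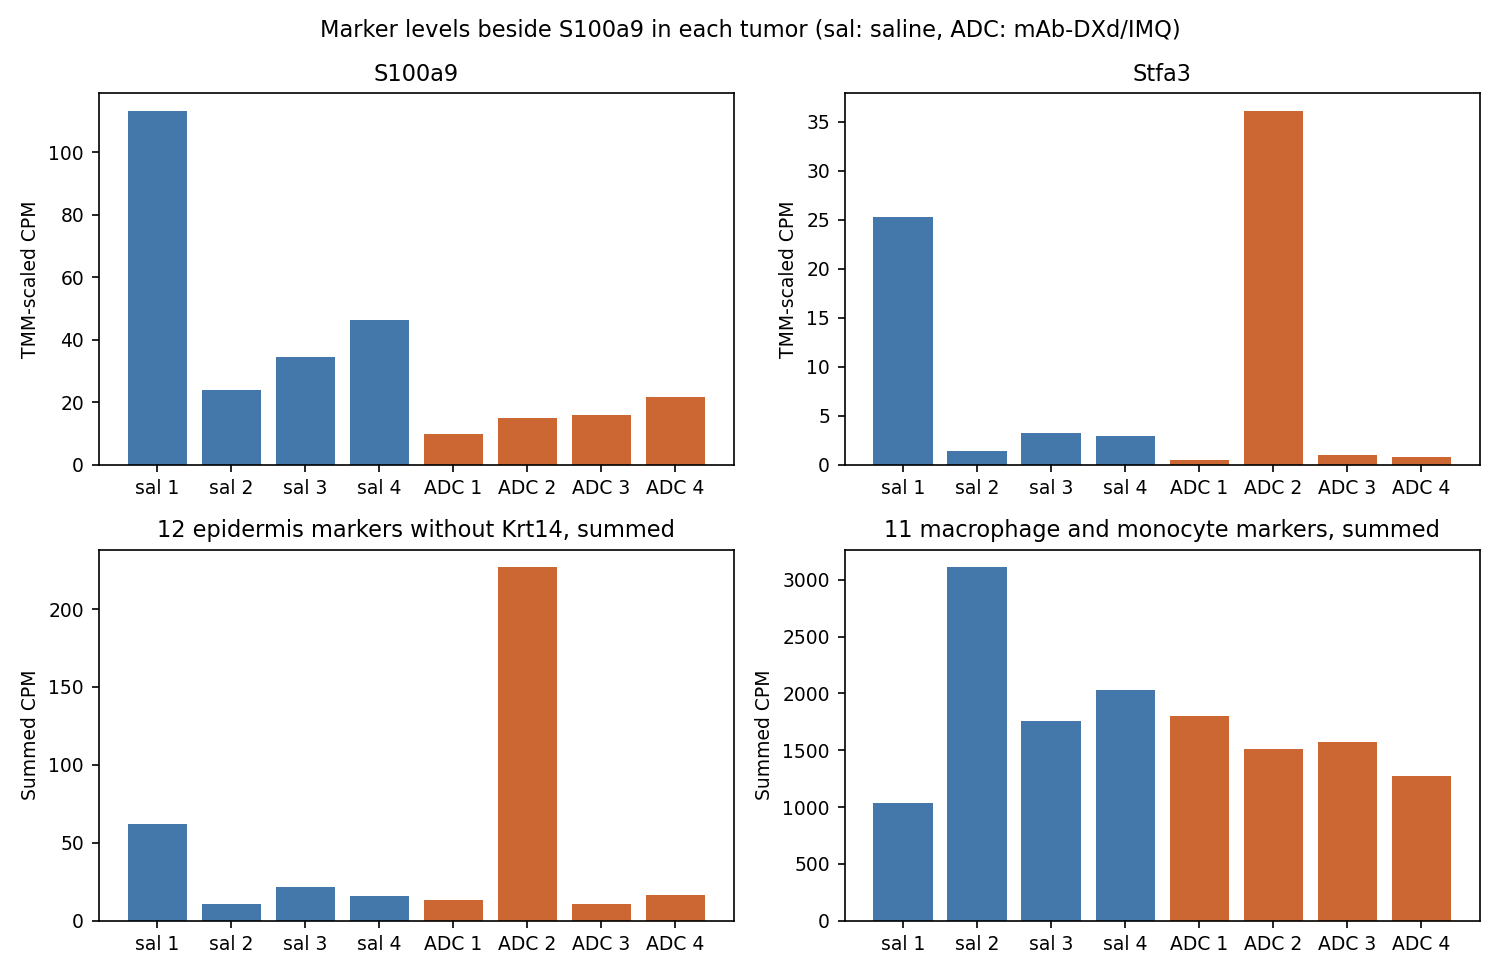
Bars give S100a9 and Stfa3 in CPM, and the summed CPM of 12 epidermis markers without Krt14 and of 11 macrophage and monocyte markers (vertical axes from 0), in saline tumors (sal 1 to 4) and mAb-DXd/IMQ tumors (ADC 1 to 4). Stfa3 and the epidermis sum are high in saline tumor 1 and mAb-DXd/IMQ tumor 2 (227 CPM for the sum), while S100a9 is high in saline tumor 1 alone, at 113 CPM.

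For 7 eosinophil and basophil markers, led by Mcpt8, sums were 6.14, 4.17, 5.55 and 4.46 CPM in saline tumors and 6.72, 4.71, 14.6 and 7.20 CPM in mAb-DXd/IMQ tumors. The eosinophil granule genes Epx and Prg2 were at or under the floor in all 8 tumors. Red cell markers, 6 genes led by Hbb-bs, summed to 17.4, 53.2, 23 and 40.1 CPM against 79.7, 36.3, 61.2 and 47.1 CPM, overlapping. Fibroblast markers, 5 genes led by Col1a1, summed to 2311, 2994, 5339 and 5500 CPM against 4249, 3353, 6157 and 2318 CPM. Tumor epithelium markers, 7 genes led by Krt18, summed to 2913, 2174, 2956 and 2691 CPM against 4194, 3244, 2523 and 2512 CPM, overlapping between groups. In these 4 lists edgeR, DESeq2 and voom called 0. At an unadjusted p below 0.05 in edgeR there was 1 higher among eosinophil and basophil markers, 2 higher among red cell, 1 lower among fibroblast and 1 higher among tumor epithelium markers, of 4, 5, 5 and 7 genes tested. Of all tested genes, 9.79% were lower and 9.13% higher at that p.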

How the data were processed

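Poly-A RNA of 8 tumors (4 saline, 4 mAb-DXd/IMQ) was sequenced. Gene-level values are raw counts as deposited by the authors, whose processing notes name HISAT2, HISAT, TopHat2 and mm39. Gene coordinates in the deposited table equal those of GENCODE M21 on GRCm38 for 98.3% of 54409 shared genes, all 10 members included. The labels describe both stranded and unstranded library preparation, and which was used is not stated. CPM were computed here with TMM scaling, over total counts of 34591912 to 69582375 per tumor, and divided by gene length where levels of genes are compared. Testing used edgeR 4.0.16 in R 4.3.3 (filterByExpr, minimum count 10 and total 15; quasi-likelihood F-test; Benjamini-Hochberg over 18511 genes), with no covariates. The SE is the log2 fold change over the square root of F. The steps were tested on simulated data. Alternatives were other scalings, filters, DESeq2 1.42.0, limma 3.58.1 voom, no fold limit, a replicate block, a gene length offset and leaving out each tumor. Named from each list were genes past the thresholds, the 3 highest per kb, and the highest and lowest fold change; not every gene so picked is printed. Likeness used genes with a mean of at least 1 CPM and log2 CPM with a prior count of 2. The 10 members and the lists were chosen with earlier results of these data known. Python 3.11.15 with pandas 2.3.3, scipy 1.17.1 and matplotlib 3.10.9 was used for summaries and plots. Sequences are from RefSeq.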

Additional observations from a re-analysis of the deposited data

Results flagged for a closer look

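Within a group of 4 tumors, a value was picked out when its gap to the nearest other value made up nearly the whole range of the group. Chance does so in about 1 in 20 groups. Of 38 groups of values set by the rules on members, marker sums and library size, 2 had such a tumor. Csf3r was at 15 CPM in mAb-DXd/IMQ tumor 1, below the 21.8 to 22.9 CPM of the other mAb-DXd/IMQ tumors. Ly6g was at 0.590 CPM in mAb-DXd/IMQ tumor 3, against 0 to 0.0562 CPM in the others. A further 20 groups, of genes and a sum chosen after their values were seen, had 6, and that choice makes the share no guide to chance. They were the epidermal sum without Krt14 (227 CPM), Krt5 (112 CPM), Stfa3 (36.1 CPM) and BC100530 (44.2 CPM) in mAb-DXd/IMQ tumor 2, and Stfa3 (25.3 CPM) and BC100530 (30.7 CPM) in saline tumor 1.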

How the results depend on the processing

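With 197 genes and 1 member past the thresholds as reported, RLE scaling gave 203 and 1, upper-quartile scaling 218 and 0, total counts 194 and 0, no filter 358 and 3, DESeq2 787 and 3, and the gene length offset 122 and 2. The replicate block gave 14 genes and 0 members, and 14 and 0 with the length offset added; same-numbered tumors do not pair, with correlations of their deviations from the group means of -0.170, -0.0546, 0.0794 and -0.0672. Leaving out 1 tumor gave 10 to 203 genes and 0 to 2 members. Leaving out saline tumor 1 and mAb-DXd/IMQ tumor 2 together, chosen after seeing the data, gave 21 and 0 with fewer samples. Csf3r kept its direction in 20 of 20 alternatives and lost its call in 12. For Csf3r, S100a8 and S100a9, whose groups did not overlap, leaving out tumors could hardly turn the direction. The setting without a fold limit used the same fit, so it could not turn any direction. S100a8 gained a call in 4 and S100a9 in 3, and Csf3 and Lcn2 in 0, all with negative fold changes. The sign turned for Ngp (0.62 without saline tumor 2, in a range of -1.20 to 0.62 with 1 tumor left out) and Ltf (-0.17 without mAb-DXd/IMQ tumor 4, in a range of -0.17 to 0.66). Fold changes followed gene length across genes, which are not independent replicates (rho = -0.212, and -0.0339 with the offset). The cause of these shifts was not tested beyond the loss of samples. Low counts limit Camp and Ly6g, which were not tested, and Ngp, Ltf and Retnlg, whose totals over 8 tumors were 134, 251 and 251.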
